A study of Mus musculus with 19 samples.

Results

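The 10 genes described here form the core of the mammalian circadian clock: Arntl (also written Bmal1), Clock, Per1, Per2, Per3, Cry1, Cry2, Nr1d1, Nr1d2 and Dbp. They were chosen by name, through the Ensembl identifiers of a table of 51789 genes, and each matched 1 row of it. The 19 libraries were made from total RNA, depleted of ribosomal RNA, of the dorsal hippocampus. The mice were C57BL/6J males aged 2 to 4 months. In experiment 1 all 11 mice carried tTA, the tetracycline transactivator, and all were exposed to SOR, which the labels do not spell out and which in work on this mouse line stands for spatial object recognition training. Of these mice, 5 (tTA+/DN+) had the DN transgene, which encodes a dominant-negative Nr4A nuclear receptor, and 6 (tTA+, DN-) were controls. In experiment 2 no mouse carried DN. Its 4 SOR mice were 1 tTA- (replicate 1) and 3 tTA+ (replicates 2 to 4). Its 4 homecage mice were 2 tTA- (replicates 1 and 2) and 2 tTA+ (replicates 3 and 4). The labels give neither the promoter that drives tTA nor the time of day at which tissue was taken, so no library can be placed on a clock phase.

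In the clock, the proteins of Arntl and Clock form a pair that binds E-box sequences and switches on the Per, Cry and Nr1d genes and Dbp. PER and CRY proteins then block that pair, and the receptors encoded by Nr1d1 and Nr1d2 (REV-ERB alpha and beta) repress Arntl, so that over a day Arntl RNA peaks when Dbp, Nr1d1 and Per RNAs are low. The hippocampus runs such a clock as a follower of the master clock in the suprachiasmatic nucleus, and Per1 and Per2 are also induced by neuronal activity and by glucocorticoid hormone.

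Promoter windows of 4 members are printed to show the motifs through which clock proteins are known to act on clock genes. RefSeq windows (GRCm38.p6, from 250 bases before to 50 after a gene's start) matched 9 of the 10 members, all but Per2, in 13 windows. Both strands were searched for the letters of each motif. Each line below gives the 250 bases before a start (for Arntl, 30 bases after it), 5′ to 3′ on the gene's strand, with the matches in capitals.
Per1, chr11:69098699-69098948, plus strand, CRE half-site TGACG and E-box CACGTG: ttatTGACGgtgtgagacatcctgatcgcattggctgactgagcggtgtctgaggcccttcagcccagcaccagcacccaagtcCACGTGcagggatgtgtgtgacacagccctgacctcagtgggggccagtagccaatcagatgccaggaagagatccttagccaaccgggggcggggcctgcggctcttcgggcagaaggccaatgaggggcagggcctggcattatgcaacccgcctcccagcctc
Cry1, chr10:85185055-85185304, minus strand, CACGTT (read on the other strand), E-box CACGTG and TGACG: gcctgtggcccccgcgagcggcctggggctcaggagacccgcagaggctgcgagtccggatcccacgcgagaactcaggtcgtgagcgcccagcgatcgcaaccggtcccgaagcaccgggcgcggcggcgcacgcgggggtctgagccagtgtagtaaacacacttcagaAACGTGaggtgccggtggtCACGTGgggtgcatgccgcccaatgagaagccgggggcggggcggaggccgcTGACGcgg
Per3, chr4:151044666-151044915, minus strand, D-box TTATGTAA in 2 copies: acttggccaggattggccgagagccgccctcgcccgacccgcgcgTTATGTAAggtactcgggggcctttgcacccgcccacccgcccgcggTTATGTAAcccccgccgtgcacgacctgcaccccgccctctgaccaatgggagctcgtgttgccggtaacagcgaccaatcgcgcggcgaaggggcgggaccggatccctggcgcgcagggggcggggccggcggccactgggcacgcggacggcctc
Arntl, chr7:113207530-113207559, plus strand, RORE core TAGGTCA: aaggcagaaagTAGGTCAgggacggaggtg

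The E-box CACGTG stood in windows of Per1 and Cry1, and in 7.15% of all 32851 windows. Its variant CACGTT stood in windows of Cry1, Cry2 and Nr1d1, against 4.68% of all windows. The D-box TTATGTAA, the kind of sequence that the DBP protein binds, stood in the Per3 window alone among the 13 windows, with first bases at positions -205 and -158 from the start, and in 0.938% of all windows. The RORE core TAGGTCA, to which REV-ERB and ROR receptors bind, began at position 31 after a start of Arntl, and stood in 2.61% of all windows. The CRE half-site TGACG stood in windows of Per1, Cry1 and Cry2 (20.8% of all). None of the 13 windows, which include none of Per2, held the full CRE TGACGTCA (1.79% of all), which contains that half-site, the RORE core TGGGTCA (3.98%), the NBRE AAAGGTCA that Nr4A receptors bind (1.51%; it shares AGGTCA with TAGGTCA) or the palindromic glucocorticoid response element (0.0487%). A match is a match of letters only.

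Library totals ran from 22258159 to 66991576 counts. The lowest belonged to SOR replicate 3 of experiment 2, in which 27815 genes had a count, against 30974 to 31141 in the other 3 libraries of its group. This library also had the lowest Clock and Nr1d1 and the highest Cry1 and Dbp of all 19, so the results it moves most are given with and without it. Markers of dentate granule cells, CA1, CA3 and excitatory neurons were present in every library. Of 7 markers of the suprachiasmatic nucleus, Vip and Rgs16, which other neurons also express, averaged 17.4 and 3.99 CPM (counts scaled to the library total), and the defining markers Avp, Nms, Six3, Lhx1 and Six6 averaged at most 0.172 CPM. The summed level of 8 choroid plexus markers ran from 19.4 to 4030 CPM across libraries, a difference in dissection that moved with some groups and is given beside the results. In bulk tissue, fewer cells of a type and less RNA per cell cannot be told apart. The labels do not state that each library came from its own mouse, and p-values measure the spread between these libraries.

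All 10 clock genes were well covered, from 220 counts (Nr1d1, lowest library) to 14481 (Clock, highest library). Levels were compared per kilobase of exon, with the exons of all annotated transcripts of a gene merged. Over all 19 libraries Nr1d2 was the highest at 20.7 ± 1.92 CPM per kb (mean ± SD), ahead of Clock at 16.8 ± 1.73 and Cry2 at 15.6 ± 1.32. The merged length was 13727 bases for Clock and 5409 for Nr1d2, and it is not the length of the transcripts expressed. Without division by length Clock averaged 231 and Nr1d2 112 CPM, so their order depends on that length. Per kilobase, Nr1d2 exceeded Clock in 18 of 19 libraries and Clock exceeded Cry2 in 16 of 19. All other members lay lower: Cry2 exceeded Arntl, at 7.57 ± 0.727 CPM per kb, in 19 of 19 libraries. Below Arntl the order was not the same in the 2 experiments. In experiment 1 (n = 11) Per2 followed at 6.88 ± 1.43, Cry1 at 5.61 ± 0.569, Nr1d1 at 5.45 ± 0.504, Per3 at 5.37 ± 0.643, Per1 at 4.04 ± 0.54 and Dbp at 3.73 ± 0.547 CPM per kb. In experiment 2 (n = 8) Dbp followed Arntl at 7.07 ± 1.42, then Cry1 at 6.02 ± 1.23, Per2 at 5.16 ± 1.26, Per3 at 5.14 ± 0.925, Nr1d1 at 4.83 ± 0.645 and Per1 at 3.36 ± 0.356 CPM per kb. Dbp lay below Nr1d1 in all 11 libraries of experiment 1 and above it in all 8 of experiment 2. Per2 lay above Cry1 in 10 of 11 libraries of experiment 1 and in 1 of 8 of experiment 2. Nr1d1 and Per3 could not be ordered in either experiment: Nr1d1 was the higher of the pair in 4 of 11 and in 4 of 8 libraries. Other neighbours were not firmly ordered either. In experiment 1 Arntl exceeded Per2 in 7 of 11 libraries and Cry1 exceeded Nr1d1 in 5 of 11. In experiment 2 Arntl exceeded Dbp in 5 of 8. Dbp exceeded Per1 in 4 of 11 libraries of experiment 1, where their ranges overlapped, and in 8 of 8 of experiment 2.

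Members differed in how much they varied between libraries. On the CPM scale, Dbp had the largest coefficient of variation over the 19 libraries, 38.1%, followed by Per2 at 25.8%. Over all libraries Cry2 varied least, at 8.44%, with Nr1d2 at 9.3%, Arntl at 9.6% and Clock at 10.3%. Within experiment 1 the lowest values were those of Clock, 3.04%, and Cry2, 3.31%, and within experiment 2 the lowest was that of Nr1d2, 5.42%, with Cry2 at 12.7%. Within an experiment the coefficient of variation of Dbp was 14.7% (experiment 1) and 20.1% (experiment 2), and that of Per2 was 20.8% and 24.5%.

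**Figure D1:**
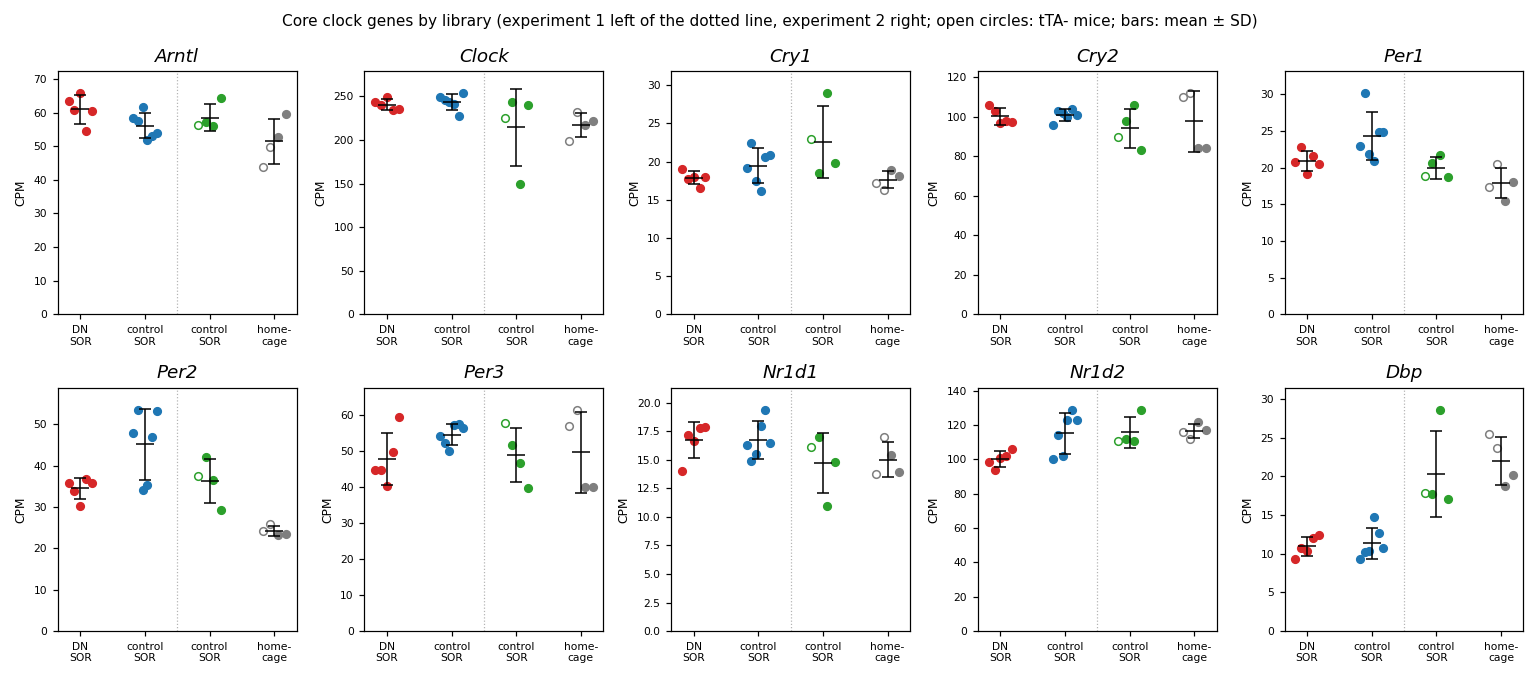
Levels of the 10 clock genes in CPM (vertical axes, linear, from 0) in each of the 19 libraries, by group; open circles are tTA- mice, bars are mean ± SD and the dotted line divides experiment 1 from experiment 2. Dbp lies between 9.29 and 14.7 CPM in experiment 1 and between 17.1 and 28.6 CPM in experiment 2, and Per2 lies lowest in the homecage mice.

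The first comparison asked whether the dominant-negative Nr4A transgene altered the clock genes after SOR. None of the 10 was called (adjusted p under 0.05 over all genes, edgeR quasi-likelihood test), where 0.00893% of the 22391 genes tested were called. At an unadjusted p under 0.05 there were 5 of the 10, against 3.83% of all genes: Per1, Per2, Per3 and Nr1d2 were lower in DN mice (1.81% of all genes), and Arntl was higher (2.02%). The adjusted p was 0.999 for every member. In all, 9 of 10 members had a log2 fold change below 0, with a median of -0.085, against a median of 0 over all genes tested. Leaving out DN replicate 1, DN replicate 3, control replicate 5 or control replicate 6 left 3 members at an unadjusted p under 0.05.

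The difference farthest from 0 was in Per2, a repressor of the Arntl and Clock pair that responds readily to outside signals. Per2 (ENSMUSG00000055866.9) lies at GRCm38 chr1:91415982-91459324, minus strand, with 25 distinct exon intervals annotated over 2 transcripts. DN mice had Per2 levels of 35.8, 33.9, 30.2, 36.8 and 35.7 CPM (replicates 1 to 5), and the 6 controls ran from 34.2 through a median of 47.3 to 53.5 CPM. Control replicates 3 and 4, at 34.2 and 35.2 CPM, lay inside the DN range, and the other 4 controls lay above it at 46.8 CPM or more. The log2 fold change was -0.39 (SE 0.132, unadjusted p = 0.0161, edgeR).

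Those 4 controls, replicates 1, 2, 5 and 6, also had more RNA of 10 activity-regulated genes (Fos, Arc, Egr1 and others). The summed level of these genes was 283 to 511 CPM in the 4, 177 and 204 CPM in control replicates 4 and 3, and 188 to 285 CPM in DN mice. DN replicate 3 had the 285 CPM, above control replicate 5, and the lowest Per2 of experiment 1. All 10 activity genes were lower in DN mice, at a median of -0.32 on the log2 scale, and none had an unadjusted p under 0.05. Of all 22391 genes tested, 11191 were lower. The activity list was chosen with earlier results of these data known. Choroid plexus markers summed to 4030 and 1330 CPM in control replicates 1 and 2 and to 1610 CPM in DN replicate 2. Control replicates 5 and 6, with sums of 24.1 and 19.4 CPM, had Per2 levels of 46.8 and 53.3 CPM. The parts of neuronal activity and of choroid plexus content in the Per2 values were not tested.

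Per1, the close relative of Per2, stood at 19.1 to 22.8 CPM in DN mice and 20.9 to 30.2 CPM in controls (log2 fold change -0.22, SE 0.0778, unadjusted p = 0.013, edgeR). Per3, the third member of the family, stood at 44.8, 44.9, 40.5, 49.9 and 59.5 CPM in DN mice and at 50.2 to 57.5 CPM in controls. Its log2 fold change was -0.19 (SE 0.0825, unadjusted p = 0.0388, edgeR), although DN replicate 5 had the highest Per3 of experiment 1. In both genes the groups overlapped.

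Among the receptors that repress Arntl, Nr1d2 stood at 98.6, 94.0, 101, 102 and 106 CPM in DN mice and at 100 to 129 CPM in controls, with a control median of 119 CPM. The log2 fold change was -0.20 (SE 0.0618, unadjusted p = 0.00595, edgeR), the smallest unadjusted p of the 10, and 4 of the 6 controls lay above all DN mice. Its paralog Nr1d1 differed by -0.00 (SE 0.0749, unadjusted p = 0.954, edgeR) on the log2 scale. Arntl, the gene these receptors repress, stood at 63.4, 60.9, 65.9, 54.5 and 60.4 CPM in DN mice and at 52.0 to 61.8 CPM in controls. Its log2 fold change was 0.12 (SE 0.0505, unadjusted p = 0.0289, edgeR), and the groups overlapped. Clock, Cry1, Cry2 and Dbp had log2 fold changes between -0.12 and -0.01, none at an unadjusted p under 0.05.

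Of 21 further clock genes (other activators, repressors, PAR bZIP factors related to Dbp, kinases and ubiquitin ligases that act on PER and CRY), all 21 were tested and none was called in DN against control mice. Their median log2 fold change was -0.018. Tef, a PAR bZIP factor like Dbp, was lower at -0.12 (unadjusted p = 0.00916, edgeR). Noct, a phosphatase gene under clock control, was lower at -0.12 (unadjusted p = 0.04, edgeR). The others had an unadjusted p above 0.05.

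The second comparison set SOR against homecage in mice without DN, 4 against 4. None of the 10 clock genes was called, where 0.0897% of the 22305 genes tested were called. Per2 and Cry1 reached an unadjusted p under 0.05, both higher after SOR, against 7.6% of all genes in either direction and 3.67% higher. The median log2 fold change of the 10 was -0.02, against 0.008 over all genes tested.

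Per2 stood at 37.4, 42.1, 36.4 and 29.2 CPM in the SOR mice (replicates 1 to 4) and at 24.2, 25.9, 23.1 and 23.5 CPM in the homecage mice. All 4 SOR libraries lay above all 4 homecage libraries. Per2 was the only 1 of the 10 members whose groups did not overlap; 5.71% of all genes tested did so, and 3.06% with SOR higher. The log2 fold change was 0.58 (SE 0.114, 1.49-fold), with an unadjusted p of 0.000314 and an adjusted p of 0.157 in edgeR. DESeq2 gave an adjusted p of 0.00254, and without SOR replicate 4, the lowest SOR library, the edgeR adjusted p was 0.0439. In the tTA+ mice alone the log2 fold change was 0.61, with an unadjusted p of 0.0102 and an adjusted p of 0.998 in edgeR.

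Genes that respond to the known inducers of Per2, glucocorticoid and activity, differed between the same libraries. Both gene lists were chosen with earlier results of these data known, so the counts below are not an independent check. Of all 22305 genes tested, 11491 were higher after SOR and 20 were called. Of 10 glucocorticoid-induced genes (Tsc22d3, Sgk1, Fkbp5 and others), 10 were higher after SOR and 3 were called, with a median log2 fold change of 0.65. Their summed level was 578, 556, 596 and 484 CPM after SOR and 338, 333, 318 and 366 CPM in homecage mice. Of the 10 activity genes, 9 were higher and 2 were called, and their median was 0.57. Their sums were 269, 258, 284 and 256 CPM against 177, 158, 154 and 188 CPM. SOR replicate 4, lowest of its group in Per2, was also lowest of its group in both sums. Choroid plexus sums were 1020, 2210, 24.6 and 58.0 CPM after SOR and 68.6, 176, 75.3 and 45.4 CPM in the homecage. SOR replicates 3 and 4, whose choroid plexus sums lay below or within the homecage range, had more Per2 than any homecage mouse. The parts of hormone, activity and choroid plexus content in the Per2 level was not tested.

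Per1 levels were 18.8, 20.6, 21.7 and 18.7 CPM in SOR mice, while homecage mice had 17.4, 20.5, 15.5 and 18.1 CPM. Its log2 fold change was 0.15 (SE 0.106, unadjusted p = 0.187, edgeR), and the groups overlapped; the difference between the 2 genes was not tested. Cry1, the partner of PER proteins in repression, had 22.9, 18.5, 29.0 and 19.8 CPM in SOR mice, while homecage mice had 17.2, 16.3, 18.9 and 18.1 CPM. Its log2 fold change of 0.34 (SE 0.129, unadjusted p = 0.0236, adjusted p = 0.621, edgeR) dropped to 0.21 without SOR replicate 3, with an unadjusted p of 0.0437. Arntl had a log2 fold change of 0.175 (SE 0.104, unadjusted p = 0.121, edgeR). Dbp had one of -0.135 (SE 0.162, unadjusted p = 0.422, edgeR). The remaining 5 members lay between -0.06 and -0.015.

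None of the 21 further clock genes was called after SOR. Bhlhe40, which encodes the E-box repressor DEC1, ranged over 86.0 to 101 CPM in SOR mice and 70.7 to 78.5 CPM in homecage mice, without overlap. Its log2 fold change was 0.32 (SE 0.0834, unadjusted p = 0.00235, adjusted p = 0.378, edgeR). Nfil3, a repressor that binds the same D-box as DBP, had a log2 fold change of 0.35 (SE 0.132, unadjusted p = 0.023, edgeR), and its groups overlapped. The median of the 21 was 0.

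The third comparison set the 5 tTA+ against the 3 tTA- mice of experiment 2, with exposure in the model. It uses the same 8 libraries as the SOR comparison. None of the 10 clock genes was called, where 0.363% of the 23659 genes tested were called. Per3 was the only member at an unadjusted p under 0.05, against 5.76% of all genes, 3.5% in the direction of Per3.

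Per3 (ENSMUSG00000028957.12) lies at GRCm38 chr4:151003652-151044665, minus strand, with 27 distinct exon intervals annotated over 5 transcripts. Its promoter window holds the D-boxes printed above. Per3 stood at 57.8 CPM in the tTA- SOR mouse and at 57.1 and 61.6 CPM in the tTA- homecage mice. The tTA+ mice had 51.7, 46.9 and 39.9 CPM after SOR and 40.1 and 40.1 CPM in the homecage. Every tTA+ library of experiment 2 lay below every tTA- library, which held for 3.38% of all genes tested. The log2 fold change was -0.46 (SE 0.109, 0.725-fold, unadjusted p = 0.00154, adjusted p = 0.18, edgeR). The call depended on the fit: the adjusted p was 0.0192 with no filter on low counts, 0.0335 in DESeq2, 0.0477 without SOR replicate 3 and 0.0165 with all 19 libraries in 1 edgeR fit. In experiment 1, where every mouse was tTA+, Per3 ran from 40.5 to 59.5 CPM, across the levels of both genotypes of experiment 2.

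Markers of dentate granule cells were lower in the same tTA+ libraries. C1ql2 fell by 2.20 on the log2 scale (adjusted p = 0.000218, edgeR), and Dsp fell by 1.06 (adjusted p = 0.0157, edgeR). The third marker of the list, Prox1, had a log2 fold change of -0.67 (adjusted p = 0.331, edgeR). The sum of the 3 granule markers was 252 to 311 CPM in tTA- and 113 to 160 CPM in tTA+ mice. In experiment 1 that sum was 121 to 162 CPM, below every tTA- mouse of experiment 2, while Per3 there reached 59.5 CPM. The part of granule cell content in the Per3 difference was not tested.

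The other 9 members had log2 fold changes from -0.20 (Cry2) to 0.18 (Arntl). Cry2, a repressor, had 110 and 112 CPM in the tTA- and 84.2 and 84.0 CPM in the tTA+ homecage mice. After SOR it had 89.8 CPM in the tTA- mouse and 97.6, 106 and 83.2 CPM in tTA+ mice, so the genotypes overlapped there. Of the 21 further clock genes none was called, and 4 were lower at an unadjusted p under 0.05, against 3.5% of all genes. These were the repressor gene Bhlhe41 at -0.31 (unadjusted p = 0.0109), the repressor gene Ciart at -0.32 (0.0431), and the PAR bZIP genes Tef at -0.21 (0.0241) and Hlf at -0.22 (0.0491), all from edgeR.

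The fourth comparison set libraries with the same labels apart from the experiment against each other: tTA+ controls after SOR, 6 in experiment 1 and 3 in experiment 2. It measures the difference between the experiments, whose dates and collection times the labels do not give. The experiments differed in many genes: 19.2% of the 23102 genes tested were called, 11.3% lower in experiment 1 and 7.98% higher. Among the 10 clock genes, 1 was called: Dbp was lower in experiment 1, with a log2 fold change of -0.87 (SE 0.171, 0.546-fold, unadjusted p = 0.000202, adjusted p = 0.00719, edgeR). Across all genes, 1.21% were called with a log2 fold change as low as that of Dbp or lower.

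Dbp (ENSMUSG00000059824.12) lies at GRCm38 chr7:45705088-45710203, plus strand, with 12 distinct exon intervals annotated over 5 transcripts. It encodes a PAR bZIP activator whose RNA is one of the strongest cyclers in mouse tissues. Its levels were 9.31 to 14.7 CPM in the 6 controls of experiment 1, with a mean of 11.3 ± 2.01, and 17.7, 28.6 and 17.1 CPM in the 3 tTA+ SOR mice of experiment 2. Without SOR replicate 3, which had the 28.6 CPM, the log2 fold change was -0.61 (adjusted p = 0.00937, edgeR). With a block for the replicate number Dbp kept its direction but was not called. The groups outside this test showed the same order. DN mice had 9.29, 10.7, 10.4, 12 and 12.4 CPM, the tTA- SOR mouse had 17.8 CPM, and the homecage mice had 25.5, 23.6, 18.8 and 20.1 CPM. All 11 libraries of experiment 1 thus lay below all 8 of experiment 2, whatever their genotype or exposure. The share of all genes that separate these libraries in the same way was not counted. The libraries outside the test come from the same experiments, so they are not an independent check.

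Part of the Dbp gene is shared with a neighbour on the opposite strand: exons of Sphk2 cover 539 bases, or 18%, of the Dbp exons, and the strand setting of the counting is not given in the sources used here. Sphk2 had a log2 fold change of -0.29 in the same comparison (adjusted p = 0.0389, edgeR), in the direction of Dbp and smaller. Nr1d1 overlaps Thra over 263 bases (8.55% of its exons), and Thra had a log2 fold change of -0.26 (adjusted p = 0.0306, edgeR). Nr1d1 went the other way, at 0.24 (SE 0.133, unadjusted p = 0.0967, edgeR).

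Marker lists also differed between these libraries. Of 5 blood genes 3 were called lower in experiment 1, where their sum was 36.2 to 72.9 CPM against 75.3 to 95.1 CPM in the tTA+ SOR mice of experiment 2. Of the 10 glucocorticoid-induced genes 4 were called lower and 1 higher, with sums of 406 to 477 against 484 to 596 CPM. Among the 3 markers each of CA1, CA3 and granule cells, 2, 1 and 1 were called lower. Of 8 oligodendrocyte markers 2 were called lower and 1 higher, of 3 excitatory neuron markers 1 was called higher, and none of the 8 choroid plexus markers was called. Their part in the Dbp difference was not tested, and collection time, batch and processing cannot be told apart here.

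None of the other 9 members was called between the experiments. Arntl, which is opposed to Dbp in phase, had 52.0 to 61.8 CPM in the controls of experiment 1 and 57.1, 56.1 and 64.4 CPM in the tTA+ SOR mice of experiment 2 (log2 fold change -0.06, SE 0.0769, unadjusted p = 0.418, edgeR). Nr1d2 differed by -0.01 (SE 0.0923, unadjusted p = 0.885, edgeR). Per1 and Per3 had log2 fold changes of 0.27 (SE 0.114, unadjusted p = 0.0317, adjusted p = 0.107, edgeR) and 0.26 (SE 0.088, unadjusted p = 0.0117, adjusted p = 0.0565, edgeR), both higher in experiment 1, where 34.5% of all genes reached an unadjusted p under 0.05 in either direction. Per2, at 0.34, had the larger SE of 0.162 (unadjusted p = 0.0556, edgeR). The adjusted p of Per3 was 0.0135 without SOR replicate 2.

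**Figure D2:**
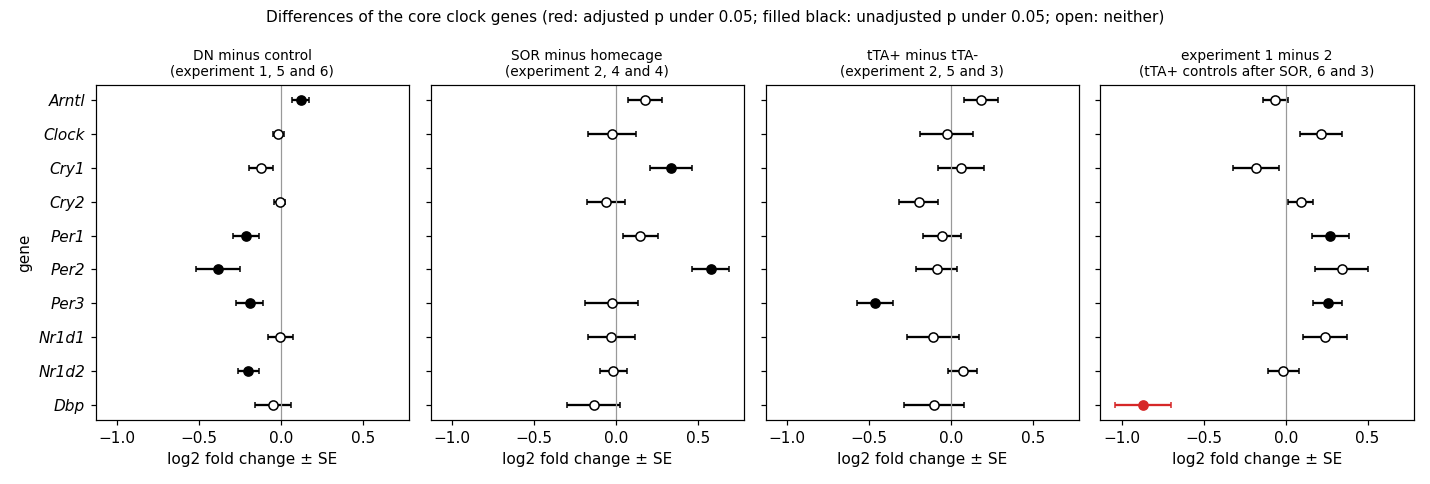
Log2 fold change ± SE (horizontal axes) of each clock gene in the 4 comparisons, from edgeR; red marks an adjusted p under 0.05, filled black an unadjusted p under 0.05 and open circles neither. Dbp between the experiments, at -0.87, is the single red point, and Per2 lies at 0.58 in SOR against homecage.

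Of the 21 further clock genes, 3 were called between the experiments, all higher in experiment 1, where 7.98% of all genes were called higher. Rora and Rorb encode receptors that activate through the RORE. Rora stood at 77.4 to 88.0 CPM in the 6 controls of experiment 1 and 63.4 to 72.3 CPM in the 3 tTA+ SOR mice of experiment 2 (log2 fold change 0.27, adjusted p = 0.0243, edgeR). Rorb stood at 42.9 to 48.8 against 33.8 to 42.7 CPM in the same mice (0.33, adjusted p = 0.0228, edgeR). Hlf, a PAR bZIP relative of Dbp, stood at 52.2 to 77.1 against 45.3 to 51.7 CPM in them (0.41, adjusted p = 0.0228, edgeR), opposite in direction to Dbp. Over all libraries the experiments overlapped in each of the 3: Rora ran from 71.5 to 98.6 against 63.4 to 73.4 CPM, Rorb from 41.5 to 48.8 against 33.8 to 42.7 CPM, and Hlf from 50.1 to 77.1 against 45.3 to 64.4 CPM. The highest Hlf levels of experiment 2 were in homecage or tTA- mice, which the test did not use. None of the 3 was called without control replicate 6 of experiment 1. Tef, the third PAR bZIP gene, had a log2 fold change of -0.19 (adjusted p = 0.0571, edgeR). Npas2, a relative of Clock, had one of 0.41 (adjusted p = 0.0558, edgeR). The kinase gene Csnk1d and the ubiquitin ligase genes Fbxl21 and Btrc, which act on PER and CRY proteins, had log2 fold changes of -0.15, -0.37 and -0.16, with adjusted p values of 0.112, 0.0701 and 0.0817 in edgeR.

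Because Arntl peaks opposite to most of the other members over a day, its relation to each was measured across the libraries of each experiment, as Pearson's r and Spearman's rho of log2 CPM. Of these 18 relations, 9 in each experiment, none passed an adjusted p of 0.05. In experiment 1 (11 libraries) r was negative for 8 of the 9 genes, all but Clock, although for Cry2, at -0.02, it was positive under both other scalings tried. The strongest was Nr1d2, at r = -0.78 (permutation p = 0.00613, adjusted p = 0.0974) and rho = -0.75 (permutation p = 0.011, adjusted p = 0.131). The r was -0.76 without the 2 libraries farthest from the median of Arntl. Within the DN and control groups, as deviations from group means, it was -0.65. Per3 followed at r = -0.74 (permutation p = 0.0108, adjusted p = 0.0974; rho = -0.71, permutation p = 0.0177), and -0.55 without the 2 farthest libraries. Dbp stood at r = -0.65 (permutation p = 0.0311, adjusted p = 0.187; rho = -0.62, permutation p = 0.0487), and -0.54 without them.

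In experiment 2 (8 libraries) r with Arntl was negative for 4 of the 9 genes, of which Nr1d1, at -0.03, was positive when scaled by plain library totals. The strongest was Cry2, at r = -0.71 (exact permutation p = 0.0434, adjusted p = 0.195; rho = -0.81, exact permutation p = 0.0218), and -0.51 without the 2 libraries farthest from the median of Arntl. Per3 had r = -0.63 (exact permutation p = 0.0916; rho = -0.57, exact permutation p = 0.151). Dbp had r = -0.58 (exact permutation p = 0.132; rho = -0.69, exact permutation p = 0.0694), which was -0.87 without SOR replicate 3 and -0.24 without the 2 farthest libraries, so it rests on few libraries. As deviations from the means of the SOR and homecage groups, each split by tTA, these 3 values were -0.59, -0.39 and -0.43. The tTA- SOR group held 1 library, whose deviation is 0 by construction. Nr1d2, the strongest in experiment 1, had r = 0.39 in experiment 2 (exact permutation p = 0.342; rho = 0.33, exact permutation p = 0.428). Per3 and Dbp were thus negative in both experiments, and Nr1d2 was not. Both genes of each pair come from the same library and share its depth and scaling.

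Among the other 36 pairs of members, measured in each experiment as well, 1 of 72 relations passed an adjusted p of 0.05 by r (Per1 with Per2) and 1 by rho (Nr1d1 with Dbp). Per1 and Per2 had, across the 11 libraries of experiment 1, r = 0.86 (permutation p = 0.00024, adjusted p = 0.0173; rho = 0.74, permutation p = 0.0133, adjusted p = 0.196). The r was 0.81 without the 2 libraries farthest from the median of Per1, where no pair passed. In experiment 2 the same pair had r = 0.68 (exact permutation p = 0.0597; rho = 0.81, exact permutation p = 0.0218). As deviations from group means, split by tTA in experiment 2, the pair had r = 0.77 and 0.54. In experiment 1 Cry1 had r = 0.82 with Per2 (permutation p = 0.00211, adjusted p = 0.0631; rho = 0.70, permutation p = 0.0204) and r = 0.80 with Per1 (permutation p = 0.00263, adjusted p = 0.0631; rho = 0.61, permutation p = 0.0517). Without the 2 libraries farthest from the median of Per2 and of Per1 these were 0.62 and 0.75, and as deviations 0.80 and 0.75. In experiment 2 Cry1 had r = 0.57 with Per2 (exact permutation p = 0.131; rho = 0.43, exact permutation p = 0.299), and 0.53 without SOR replicate 3. As deviations from the means of the SOR and homecage groups, each split by tTA, it was -0.03. With Per1 it had r = 0.40 (exact permutation p = 0.33; rho = 0.31, exact permutation p = 0.462), -0.12 without that library and 0.27 as deviations. Nr1d1 and Dbp, both direct targets of the Arntl and Clock pair, had r = 0.78 in experiment 1 (permutation p = 0.0043, adjusted p = 0.0774). Their rho was 0.95 (permutation p = 6e-05, adjusted p = 0.00432). In experiment 2 they had r = -0.67 (exact permutation p = 0.0615; rho = -0.60, exact permutation p = 0.132), and -0.28 without SOR replicate 3. Clock stood at r = 0.90 with Nr1d1 (exact permutation p = 0.00692, adjusted p = 0.0982; rho = 0.81, exact permutation p = 0.0218) and r = -0.81 with Dbp (exact permutation p = 0.00818, adjusted p = 0.0982; rho = -0.81, exact permutation p = 0.0218) in experiment 2. Without SOR replicate 3 these were 0.65 and -0.67, and without the 2 libraries farthest from the median of Clock they were 0.41 and -0.26, so both rest on those libraries.

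**Figure D3:**
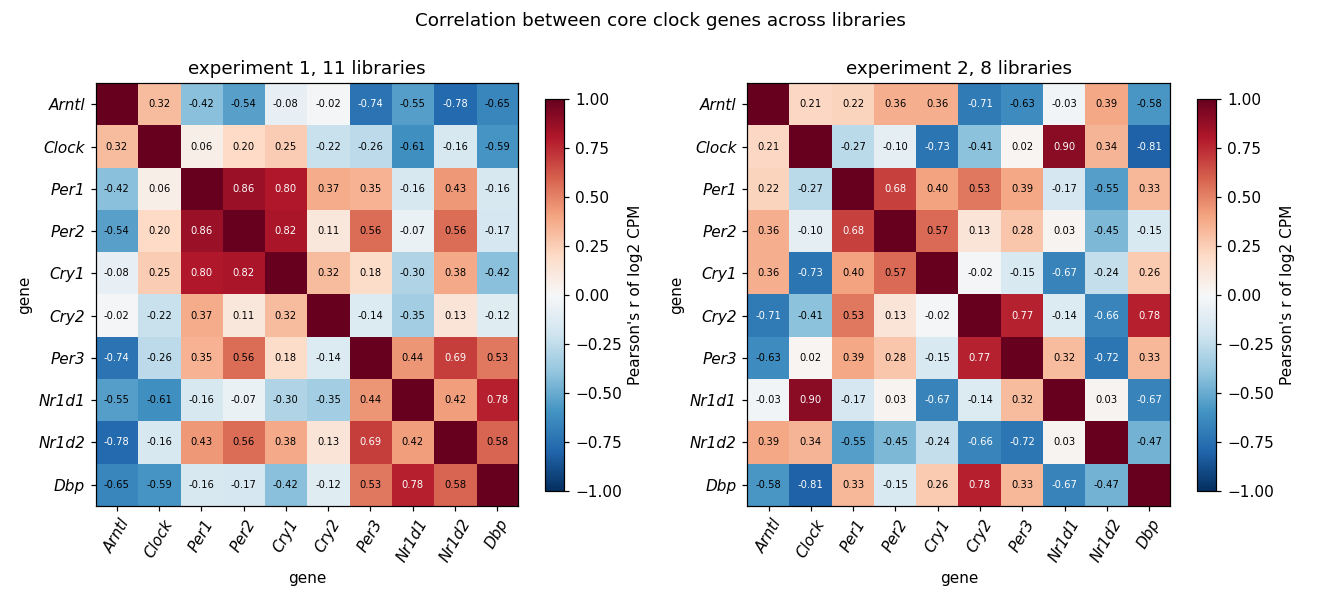
Pearson's r of log2 CPM (colour, from -1 to 1, with the value in each cell) between the 10 clock genes, across the 11 libraries of experiment 1 and the 8 of experiment 2. Arntl has r = -0.65 with Dbp in experiment 1 and -0.58 in experiment 2, and Per1, Per2 and Cry1 form a positive block in experiment 1.

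The ratio of Arntl to an opposed gene within a library needs no scaling between libraries. The log2 ratio of Arntl to Dbp counts was 2.77, 2.51, 2.67, 2.19 and 2.29 in DN mice, and ran from 1.82 through a median of 2.42 to 2.65 in the 6 controls of experiment 1. In experiment 2 it was 1.66, 1.69, 0.97 and 1.92 in SOR mice and 0.78, 1.07, 1.49 and 1.57 in homecage mice. The lowest library of experiment 2 was homecage replicate 1 and the highest, SOR replicate 4, lay above the lowest of experiment 1. The means were 2.49 ± 0.25 (SD, n = 5) and 2.32 ± 0.32 (n = 6) in experiment 1 against 1.56 ± 0.41 (n = 4) and 1.23 ± 0.37 (n = 4) in experiment 2.

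The log2 ratio of Arntl to Per2 ordered the groups in another way. It was 0.83 ± 0.20 (SD, n = 5) in DN mice, 0.34 ± 0.32 (n = 6) in their controls, 0.70 ± 0.31 (n = 4) in SOR and 1.08 ± 0.23 (n = 4) in homecage mice of experiment 2. Within each experiment the groups overlapped in the ratio to Per2, from 0.57 to 1.13 in DN mice against 0.02 to 0.85 in controls, and from 0.44 to 1.14 in SOR against 0.85 to 1.34 in homecage mice. No ratio was tested. Against Nr1d1 the group means lay close together, from 1.74 ± 0.22 (controls of experiment 1, n = 6) to 2.01 ± 0.28 (SOR, n = 4). Against Per3 they ran from 0.04 ± 0.17 (controls of experiment 1, n = 6) to 0.36 ± 0.28 (DN, n = 5).

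**Figure D4:**
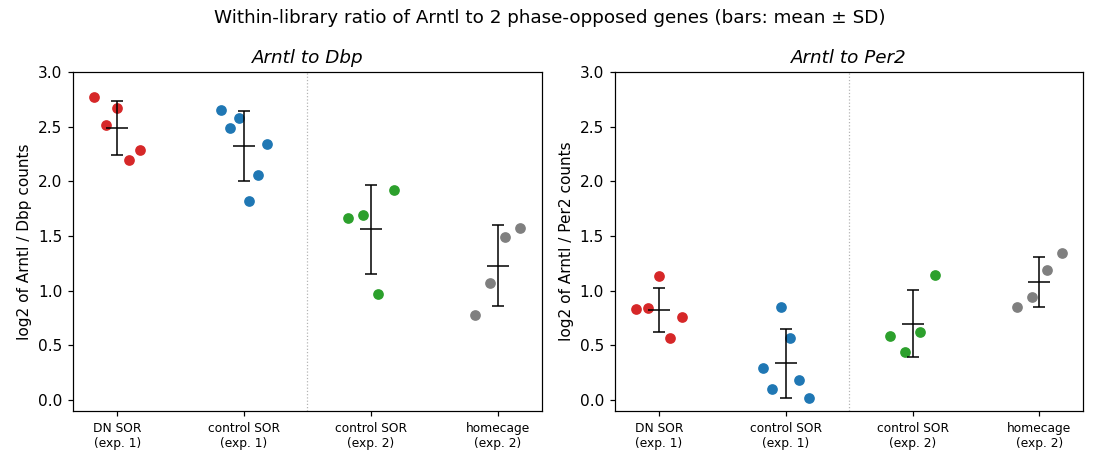
Log2 ratio of Arntl counts to Dbp counts (left) and to Per2 counts (right) in each of the 19 libraries, by group, with mean ± SD as bars. The ratio to Dbp spans 1.82 to 2.77 in experiment 1 and 0.78 to 1.92 in experiment 2.

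The genes most like Dbp and most like Arntl were ranked by the smaller of their r in the 2 experiments, among 16364 genes with a mean of at least 1 CPM in each. For Dbp these were Fto (r = 0.84 over 11 libraries and 0.94 over 8), Haus4 (0.82 and 0.87), Zfp697 (0.82 and 0.82), Gm5643 (0.81 and 0.80) and Carmil3 (0.78 and 0.94). Without SOR replicate 3 the experiment 2 values were 0.92, 0.76, 0.93, 0.60 and 0.91. No clock gene was among them: the nearest member, Per3, had r = 0.53 and 0.33 (0.52 without that library). For Arntl they were 3222401L13Rik (0.83 and 0.82), Aplp2 (0.72 and 0.83), Zfp568 (0.71 and 0.83), Hacd2 (0.76 and 0.70) and Mat2a (0.74 and 0.69). Without SOR replicate 3 the experiment 2 values were 0.87, 0.88, 0.83, 0.91 and 0.69. Clock, the partner of Arntl, had r = 0.32 and 0.21 with it, and 0.74 in experiment 2 without SOR replicate 3. At the other end of the Arntl ranking, Nr1d2 had r = -0.78 and 0.39 (0.44 without that library). These are descriptions of a ranking over many genes in few libraries.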

How the data were processed

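The authors deposited 1 table of whole-number counts per gene, with versioned Ensembl identifiers, for 19 libraries of ribosomal-RNA-depleted RNA. STAR, SAMtools 1.6 and featureCounts 1.4.4 with the mm10 build were used per the submitters' processing notes. The strand setting, the annotation and the handling of multiply mapped reads are not given in the sources used here, and they decide how overlapping genes such as Dbp and Sphk2 share counts. Columns were tied to libraries by the sample names in the labels, and 0 columns were left unused.

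Symbols and positions came from GENCODE M21 on GRCm38, which held 51596 of the 51789 identifiers (47611 in the same version). From the counts, edgeR 4.0.16 in R 4.3.3 gave TMM-scaled CPM over all 19 libraries and two-sided quasi-likelihood F tests (filterByExpr, robust), with Benjamini-Hochberg adjustment over all genes tested and calls at an adjusted p under 0.05. Standard errors were derived from F and the log2 fold change. Log2 CPM used a prior count of 2. Correlations were tested two-sided, with 100000 permutations over 11 libraries and all 40320 orders over 8, and adjusted over 18 relations with Arntl and over the 72 others. The latter were added after seeing the data.

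Tested on simulated counts with 200 genes changed 2-fold, the fit recovered 199 for DN against control (22072 genes, 15 false calls), 193 for SOR against homecage (21908, 10), 190 for tTA+ against tTA- (23167, 8) and 193 for experiment 1 against 2 (22646, 10).

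The members and the gene lists were chosen with earlier results of these data known. Named were all 10 members, those of the 21 further clock genes at an unadjusted p under 0.05 in a comparison, and the 5 genes most like Dbp and Arntl. A result that this rule names is not reported here. The overlapping genes and markers were named beside the results they touch. Alternatives were DESeq2 size factors, plain library totals, no filter, DESeq2 1.42.0, a replicate block, tTA+ mice alone, tTA as a covariate, exposure left out, all 19 libraries in 1 fit, and each library left out.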

Additional observations from a re-analysis of the deposited data

Results flagged for a closer look

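For each clock gene and each group, 40 combinations in all, the library at either end was set against the others of its group by Dixon's gap test. It marked 3 of the 40, where chance alone marks about 1 in 20, so the number is near that of chance. All 3 were in the SOR group of experiment 2, in 2 of its libraries. Dbp in replicate 3 was 28.6 CPM, and the next library had 17.8 CPM. This is the library with the lowest total count of the 19. Arntl in replicate 4 was 64.4 CPM, and the next library had 57.1 CPM. Nr1d2 in replicate 4 was 129 CPM, and the next had 112 CPM. Replicate 4 thus had the highest level of its group in both Arntl and the gene of the receptor that represses it, and the lowest Per2, at 29.2 CPM.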

How the results depend on the processing

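Across the alternatives, no clock gene was called in DN against control mice, and 2 genes in all were called there under every one. Counts of calls elsewhere moved with the fit. For SOR against homecage, 20 genes in all became 36 with no filter, 118 in DESeq2, 13 with the replicate block, 11 with tTA as a covariate, 0 in tTA+ mice alone, 100 with all 19 libraries in 1 fit, and 1 to 50 when 1 library was left out. The 86 of tTA+ against tTA- became 265, 250 and 0 with no filter, in DESeq2 and with the block, 383 with all 19 libraries and 10 to 288 when 1 was left out. The 4447 between experiments became 130 with the block, 7957 with all 19 libraries and 2549 to 6588 when 1 was left out.

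Clock genes called went from 0 to 1 for SOR (Per2, DESeq2; 0 to 1 when 1 library was left out). For tTA they went from 0 to 1 (Per3: no filter, DESeq2, all 19 libraries; 0 to 1 when 1 was left out). Between experiments they went from 1 to 2 in DESeq2 (Dbp and Per3), 0 with the block and 4 with all 19 libraries, and were 1 to 2 when 1 was left out. Further clock genes called between experiments went from 3 to 5 with DESeq2 size factors, 8 in DESeq2, 0 with the block, 9 with all 19 libraries and 0 to 5 when 1 was left out. Members at an unadjusted p under 0.05 were 3 to 5 for DN, 1 to 3 for SOR, 1 to 4 for tTA and 1 to 6 between experiments when 1 was left out. They were 1 in tTA+ mice alone (SOR), 0 and 1 with the block and 3 and 5 with all 19 libraries (tTA and experiments). The cause of these moves was not tested.

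Same-numbered libraries did not deviate together in every pair. Closest to their own number were 2 of 10 (DN), 3 of 8 (SOR) and 1 of 6 libraries (experiments). So few libraries cannot decide whether the numbers pair the mice. With the replicate block, Dbp between experiments was -0.807 (edgeR adjusted p = 0.0993) and Per3 for tTA was -0.298. Among the replicate numbers of experiment 2, only number 2 held both tTA genotypes, so the tTA values with the block rest on that pair of libraries. Of the tTA values, the block turned Clock to 0.189, Cry1 to -0.168, Nr1d1 to 0.088 and Per2 to 0.203. Leaving exposure out turned Per2 to 0.075.

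Small log2 fold changes, none called, changed sign. When 1 library was left out, DN values ran from -0.03 to 0.003 for Cry2, -0.038 to 0.053 for Nr1d1 and -0.095 to 0.041 for Dbp. SOR values ran from -0.115 to 0.096 for Per3, -0.125 to 0.014 for Cry2, -0.099 to 0.124 for Clock, -0.112 to 0.09 for Nr1d1 and -0.073 to 0.016 for Nr1d2. The tTA values ran from -0.17 to 0.042 for Per1, -0.013 to 0.151 for Cry1 and -0.086 to 0.063 for Clock. Between experiments they ran from -0.321 to 0.026 for Cry1, -0.013 to 0.16 for Cry2 and -0.074 to 0.046 for Nr1d2. For SOR, Per3 and Cry2 were 0.11 and 0.004 with tTA as a covariate. In tTA+ mice alone Per3, Cry2 and Dbp were 0.191, 0.17 and 0.093. With all 19 libraries Per3, Cry2 and Nr1d1 were 0.114, 0.009 and 0.003.

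Relations with Arntl past an adjusted p of 0.05 stayed at 0 under all alternatives. In experiment 1 the r with Cry2 was 0.019 with size factors, 0.004 with plain totals, 0.045 as deviations from group means and 0.201 without the 2 farthest libraries, and the r with Cry1 was 0.198 as deviations. In experiment 2 deviations from the means of groups split by tTA gave -0.413 for Cry1, -0.431 for Per2 and 0.304 for Nr1d1. Nr1d1 was 0.168 with plain totals and 0.084 without SOR replicate 3. Without the 2 farthest libraries Clock was -0.117 and Nr1d2 -0.007. Of the other pairs, 14 passed as deviations, whose permutation p ignores the fitted group means, and 0 without the 2 farthest libraries. Depth limits Nr1d1 and Dbp most, the members with the fewest counts.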
